A study of Danio rerio with 6 samples.

Results

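The miR-27 loci mir27a (ENSDARG00000082454) and MIR27B (ENSDARG00000082462) are 2 of the 434 annotated zebrafish miRNA loci counted in small RNA libraries of the adult telencephalon. They were chosen by their identifiers from loci whose small injury change had already been seen in these same libraries, so their levels and changes are described here without a test. The injured group held 3 libraries of telencephalic hemispheres, each labelled with injury as its treatment, and the control group held 3 libraries of healthy hemispheres labelled as untreated. According to the study's methods, the lesion was set with a syringe needle in a single hemisphere. Its mRNA libraries were made 5 days after the lesion with the other hemisphere of the fish as uninjured control, and the methods say that RNA for the small RNA libraries was prepared identically. Injured and control libraries may therefore share fish. The labels name no strain, sex or transgene, and they do not say which hemispheres, if any, came from the same fish. The p-values given for other loci therefore set the difference between the groups against the spread between these libraries, taken as separate. The study's methods for the mRNA libraries say that each hemisphere was handled on its own, so the spread within a group can include differences between fish. The p-values take no account of any fish shared by an injured and a control library.

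miRNAs are short RNAs that guide Argonaute proteins to target mRNAs by pairing through the seed, the bases near their 5′ end. The members of the miR-27 family share 1 seed and differ from each other by few bases, mostly towards the 3′ end. In vertebrate genomes a miR-27 gene usually lies between a miR-23 gene and a miR-24 gene in a common primary transcript. In mammals miR-27 has been studied mainly for its roles in blood vessels, muscle, blood cells and lipid metabolism.

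The symbol MIR27B needs care. It comes from a symbol table in which 2 zebrafish loci carry it, and the study lists ENSDARG00000082462 under the name dre-mir-27d. In the RefSeq annotation of the assembly GRCz12tu, mir27a lies next to mir23a-3 and mir24b, and mir27d lies next to dre-mir-23b and mir24-1, with 0 other genes between them. The second locus with the symbol MIR27B, ENSDARG00000080833, had 0 reads in each of the 6 libraries. A count of 0 allows up to 0.261 RPM in the injured libraries and up to 1.21 RPM in the control libraries, taking a limit of 3 reads. RPM stands for reads per 1000000 reads at miRNA loci. Below, MIR27B without an identifier means ENSDARG00000082462. Reads were kept only at a high mapping quality. A read that fits several miR-27 loci equally well does not reach it, so a low or absent count at 1 locus of this family does not show that its miRNA is low or absent. HTSeq counted both arms of a hairpin together.

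Injured libraries held 11473850 to 14545864 reads at miRNA loci and control libraries 2475462 to 4008607, so every injured library was deeper than every control and depth cannot be told apart from injury. Reads of miR-9, miR-124, miR-129, miR-138 and miR-218, miRNAs known from neurons and neural progenitors, summed to between 96503 and 110486 RPM in injured and between 96812 and 102831 RPM in control libraries, and 21 of these 22 loci had reads. The miR-9 loci mir9-4 and mir9-7 made up at least 99.1% of this sum. The other 20 loci together reached 747 to 878 RPM in injured and 769 to 844 RPM in control libraries. Among them, dre-mir-138 alone had 523 to 566 RPM in injured and 561 to 606 RPM in control libraries. The limit on mapping quality held here too, so low counts at the other loci do not show that their miRNAs are scarce. Of 188 loci whose mean normalised count exceeded 10, edgeR called 24 changed (12.8%), 20 of them higher in injured hemispheres (10.6%). Among the 186 loci other than mir27a and MIR27B these numbers were 22 (11.8%) and 18 (9.68%), so the counts over all loci include the pair and are no test of it. mir27a and MIR27B both passed the limit on low counts.

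mir27a had 3082, 2744 and 3121 reads in the injured libraries, against 450, 618 and 393 reads in the control libraries. This gave 212 RPM (95% exact interval 204 to 219), 238 RPM (229 to 247) and 272 RPM (263 to 282) in injured 1, 2 and 3, against 171 RPM (156 to 188), 154 RPM (142 to 167) and 159 RPM (143 to 175) in control 1, 2 and 3. All injured libraries lay above all control libraries, and the lowest injured interval began above the end of the highest control interval. The intervals cover counting error only. The group means were 241 ± 30.2 RPM in injured and 161 ± 8.88 RPM in control libraries (SD, n = 3 each), and relative to the control mean the injured libraries stood at 1.31, 1.47 and 1.69. With edgeR's default scaling of libraries, TMM (a trimmed mean of log ratios), the log2 fold change of mir27a was 0.54 (SE 0.13), a fold change of 1.46.

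MIR27B was the more abundant of the pair, with 9066, 5375 and 6397 reads in the injured libraries and 1038, 1578 and 888 reads in the control libraries. It stood at 623 RPM (95% exact interval 611 to 636), 466 RPM (454 to 479) and 558 RPM (544 to 571) in injured 1, 2 and 3, against 395 RPM (372 to 420.0), 394 RPM (374 to 414) and 359 RPM (336 to 383) in control 1, 2 and 3. Again no injured library fell into the range of the controls. The group means were 549 ± 78.9 RPM in injured and 383 ± 20.6 RPM in control libraries (SD, n = 3 each), and the injured libraries stood at 1.63, 1.22 and 1.46 relative to the control mean. The log2 fold change was 0.48 (SE 0.12) with TMM scaling, a fold change of 1.40. Both loci thus had injured libraries wholly above the controls, which was also the case at 32 of the 188 tested loci (17.0%), and at 30 of the 186 loci other than the pair (16.1%); this contrast was used to choose them, and nothing is read from the count.

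**Figure D1:**
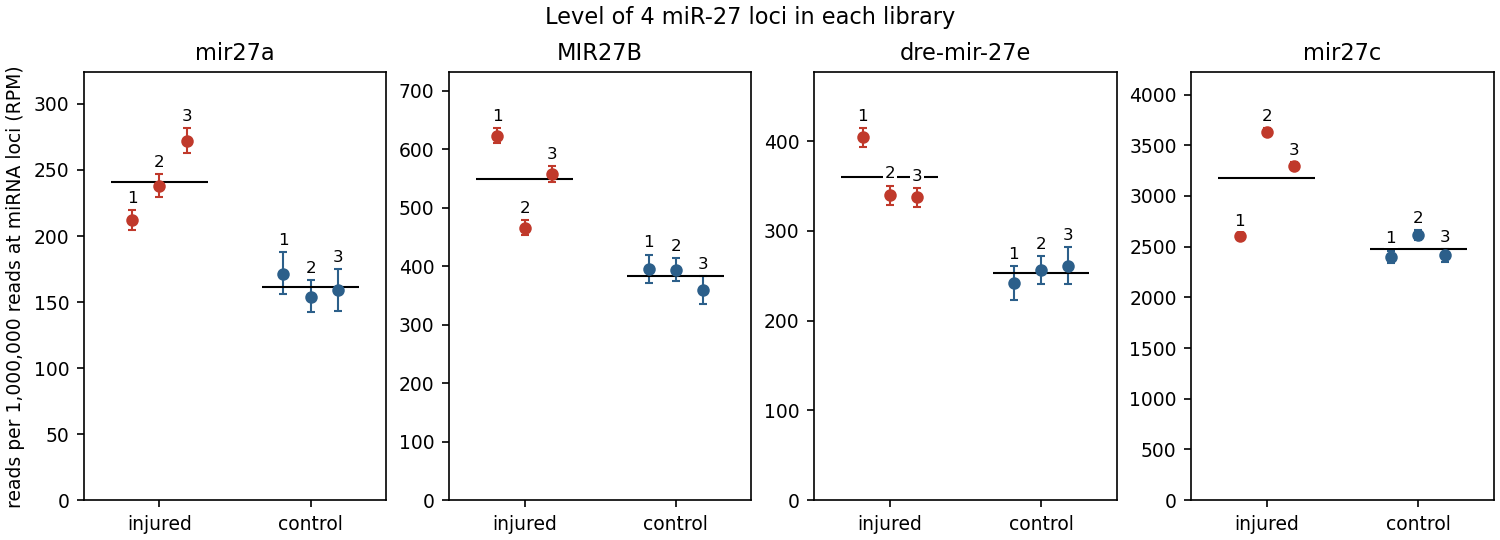
Level of mir27a, MIR27B, dre-mir-27e and mir27c in each library, in RPM on a linear axis from 0 that differs between panels. Points are libraries with their replicate number, bars are 95% exact counting intervals, and horizontal lines are group means (n = 3). At mir27a, MIR27B and dre-mir-27e all injured libraries lie above all controls, while at mir27c injured 1 (2604 RPM) lies within the control range of 2401 to 2617 RPM.

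The spread among injured libraries exceeded what counting alone gives. The coefficient of variation of mir27a was 12.5% in injured libraries, where counting error was at most 1.91%. In control libraries it was 5.50%, where counting error lay between 4.02% and 5.04%. MIR27B varied by 14.4% in injured libraries, with a counting error of at most 1.36%, and by 5.39% in control libraries, with a counting error of 2.52% to 3.36%. The spread of the control libraries was therefore near to counting error at mir27a and above it at MIR27B, and that of the injured libraries was several times counting error at both loci. In bulk libraries such as these, more cells of a type and more RNA per cell cannot be told apart.

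The ratio of the paralogues does not depend on how libraries are scaled. In the injured libraries mir27a reached 0.340 (95% exact interval 0.326 to 0.354), 0.511 (0.487 to 0.535) and 0.488 (0.467 to 0.509) reads per MIR27B read, against 0.434 (0.387 to 0.485), 0.392 (0.356 to 0.430) and 0.443 (0.392 to 0.499) in the control libraries. MIR27B outnumbered mir27a in each of the 6 libraries, by 1.96 to 2.94 times in injured and by 2.26 to 2.55 times in control libraries. The mean ratio was 0.446 ± 0.0926 in injured and 0.423 ± 0.0272 in control libraries (SD, n = 3 each). The injured libraries lay on both sides of the controls, with injured 1 below the range of the controls and injured 2 and 3 above it. On the log2 scale the ratio was 0.057 higher in injured than in control libraries, a difference smaller than the spread among injured libraries (SD 0.32). The sign of this difference turned when a library was left out, to −0.051 without injured 2 and −0.019 without injured 3.

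Injured 1 stood apart here. It had the lowest mir27a level of the injured libraries and the highest MIR27B level. Its interval for the ratio ended below those of the other injured libraries and below those of all controls. The share of mir27a in the reads of the pair was 25.4% (95% exact interval 24.6 to 26.2) in injured 1, and 33.8% (32.8 to 34.8) and 32.8% (31.8 to 33.7) in injured 2 and 3. The mean log2 fold changes of the pair hence hid unlike orders of the injured libraries. Leaving out injured 1 gave log2 fold changes of 0.64 for mir27a and 0.40 for MIR27B, and leaving out injured 3 gave 0.42 for mir27a and 0.45 for MIR27B.

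**Figure D2:**
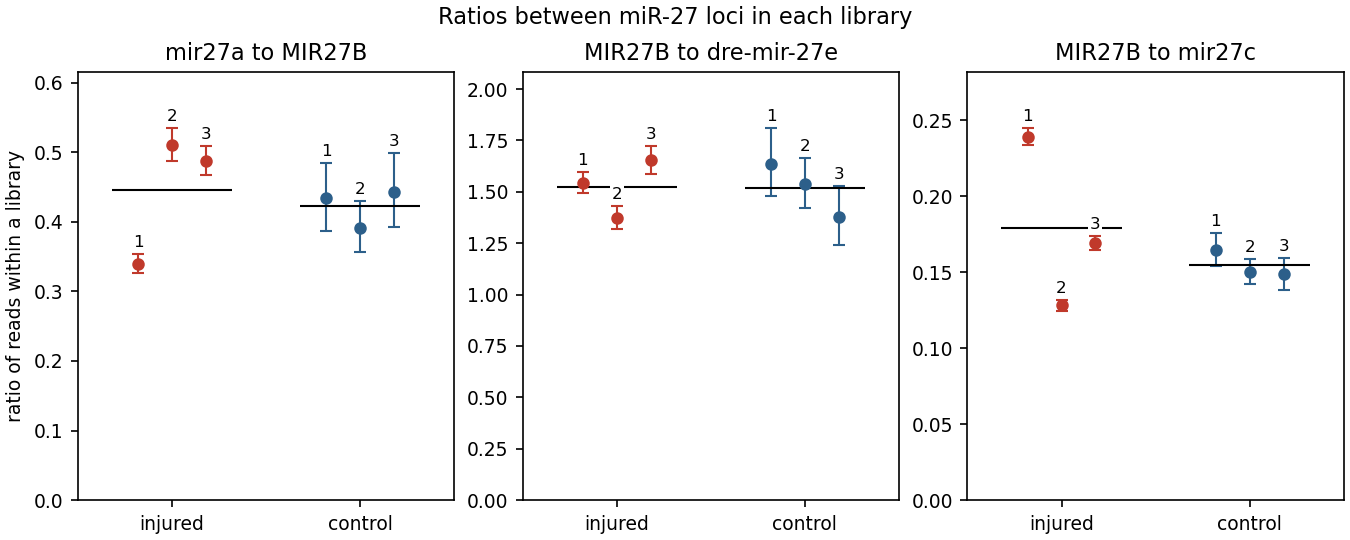
Ratio of reads between miR-27 loci within each library, on linear axes from 0. Points are libraries with their replicate number, bars are 95% exact counting intervals, and horizontal lines are group means (n = 3). Injured 1 stands apart from the other injured libraries in the ratio of mir27a to MIR27B (0.340) and of MIR27B to mir27c (0.239), whereas MIR27B to dre-mir-27e stays between 1.37 and 1.65 in all 6 libraries.

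The small change of both loci kept its direction under every scaling tried. With TMM, TMM without the 10 most abundant loci, the size factors of DESeq2 (RLE), totals of reads at miRNA loci, totals of all counted reads and the upper quartile, the log2 fold change of mir27a lay between 0.42 (upper quartile) and 0.58 (both totals). That of MIR27B lay between 0.37 (upper quartile) and 0.52 (both totals). In fold changes this is 1.34 to 1.49 for mir27a and 1.29 to 1.44 for MIR27B. The choice of scaling moved mir27a over a range of 0.15 and MIR27B over a range of 0.15, each a little more than 1 SE of the change. The direction itself is no sign of stability, since the pair came from loci whose small change in these libraries had already been seen.

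Scaling moved these loci together with all others. The median log2 fold change of the 188 tested loci was 0.03 with TMM, 0.07 with totals at miRNA loci and −0.08 with the upper quartile. Relative to that median, mir27a stood at 0.51 under all 6 scalings, and MIR27B stood at 0.45 to 0.46. The rank of the loci hardly moved either, with 18 to 20 loci above mir27a and 21 or 22 above MIR27B among the 188. Each scaling applies a single factor to a library and so shifts all loci by nearly the same amount. The steady distances and ranks follow from that and are no further result. Ratios to single loci need no scaling at all. The mean log2 ratio of mir27a to another locus was higher in injured libraries for 167 of 187 tested loci. All injured libraries had a higher ratio than all controls for 109 of the 187, and a lower one for 3. For MIR27B these numbers were 162, 103 and 6 of 187. They describe where the pair stood among the other loci, and the choice of the pair fixed part of them.

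**Figure D3:**
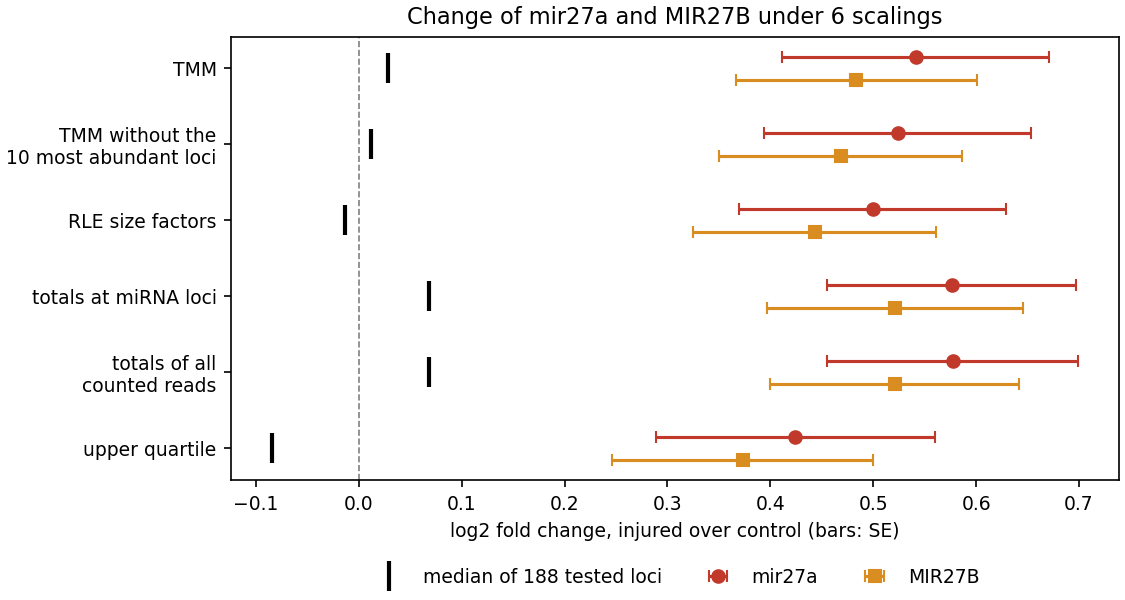
Log2 fold change of mir27a (circles) and MIR27B (squares), injured over control, under 6 scalings of the libraries, with bars of 1 SE from edgeR. Vertical marks give the median of the 188 tested loci, which shifts with the scaling from −0.08 (upper quartile) to 0.07 (both totals). Both loci stay 0.45 to 0.51 above it, since each scaling applies a single factor to a library.

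For the other miR-27 loci, which are not part of the pair, the result of edgeR's test across all 188 loci is given. They were named as relatives of the pair, with earlier results of these same libraries known. Their p-values are therefore not independent of that choice. dre-mir-27e (ENSDARG00000082920) had 404, 340 and 337 RPM in injured libraries and 241, 256 and 261 RPM in control libraries. It rose by 0.47 on the log2 scale (SE 0.10), with no overlap between the groups (edgeR adjusted p = 0.0203). The call was lost with upper-quartile scaling (log2 fold change 0.36, edgeR adjusted p = 0.0906) and without injured 3, control 1, control 2 or control 3, where the edgeR adjusted p lay between 0.0563 and 0.105. Its log2 fold change under those 4 omissions was 0.44 to 0.51.

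mir27c (ENSDARG00000083181) was by far the most abundant miR-27 locus. It had 2604, 3634 and 3297 RPM in injured libraries and 2401, 2617 and 2413 RPM in control libraries, and injured 1 lay within the range of the controls. On the log2 scale it differed by 0.33 (SE 0.13) and was not called (edgeR adjusted p = 0.196). Of the alternatives run, only the omission of injured 1 gave a call (log2 fold change 0.46, edgeR adjusted p = 0.0175), and the adjusted p was at least 0.135 in the others. No test compared the change of mir27c with that of the pair. The ratio of mir27a to mir27c was 0.0765 ± 0.00952 in injured and 0.0654 ± 0.00623 in control libraries (SD, n = 3 each). That of MIR27B to mir27c was 0.179 ± 0.0562 in injured and 0.155 ± 0.00872 in control libraries (SD, n = 3 each). The groups overlapped in both ratios. In injured 1 the ratio of MIR27B to mir27c was 0.239 and that of dre-mir-27e to mir27c was 0.155, each above those of all other libraries.

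Together the miR-27 loci took 3843, 4464 and 4678 RPM at the lowest, middle and highest injured library, against 3191, 3209 and 3420 RPM in the control libraries. mir27c held 73.1% ± 5.01 of these reads in injured and 75.6% ± 0.838 in control libraries. MIR27B held 12.9% ± 3.15 in injured and 11.7% ± 0.558 in control libraries, and mir27a held 5.56% ± 0.505 in injured and 4.94% ± 0.417 in control libraries (SD, n = 3 each). The shares of both overlapped between the groups, although the family's sum was higher in every injured library. The order mir27c, MIR27B, dre-mir-27e, mir27a held in each of the 6 libraries. Reads were whole inserts of 21 to 23 nucleotides, so RPM needs no correction for length, although ligation and mapping can favour some sequences over others. MIR27B and dre-mir-27e stood in nearly the same ratio in both groups, 1.52 ± 0.141 in injured and 1.52 ± 0.131 in control libraries (SD, n = 3 each).

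The neighbours of miR-27 genes were counted far less. Counted loci were matched to the RefSeq neighbours by symbol only, and their positions were not compared. Besides the pair, the list of miR-23, miR-24 and other miR-27 loci held 9 loci, of which 7 had reads and 5 were tested. Of these 5, 1 was called higher (dre-mir-27e) and 0 lower, set against 11.8% of loci called and 9.68% called higher among the 186 loci other than the pair. Their median log2 fold change was 0.47, which is the value of dre-mir-27e itself, against 0.03 for all tested loci. mir23a-3, which adjoins mir27a in RefSeq, had 11, 16 and 12 reads in injured and 2, 4 and 0 reads in control libraries. dre-mir-23b, which adjoins mir27d, had 19, 4 and 10 reads in injured and 1, 0 and 0 reads in control libraries. Both loci had too few reads to be tested, and no fold change is given.

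mir24-1, by symbol the other neighbour of mir27d, had 9.83, 7.89 and 7.32 RPM in injured and 6.09, 7.73 and 6.06 RPM in control libraries. Its log2 fold change was 0.28 (SE 0.18, edgeR adjusted p = 0.453), and the groups overlapped. mir23a-1, next to dre-mir-27e in RefSeq, had 9.76, 11.7 and 8.02 RPM in injured and 6.47, 7.48 and 6.46 RPM in control libraries. These groups did not overlap, but the difference of 0.48 on the log2 scale (SE 0.19) was not called (edgeR adjusted p = 0.177). mir23a-2, next to mir27c, had 33, 47 and 22 reads in injured and 6, 5 and 1 reads in control libraries (log2 fold change 1.01, SE 0.54, edgeR adjusted p = 0.354). MIR24-1 (ENSDARG00000080599) had 0 reads throughout. No miR-23 or miR-24 locus had more than 143 reads in any library, whereas mir27a had at least 393. The limit on mapping quality held for these loci too, and it drops reads that fit several loci equally well. Their low counts therefore do not show that miR-23 or miR-24 is scarce beside miR-27.

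**Figure D4:**
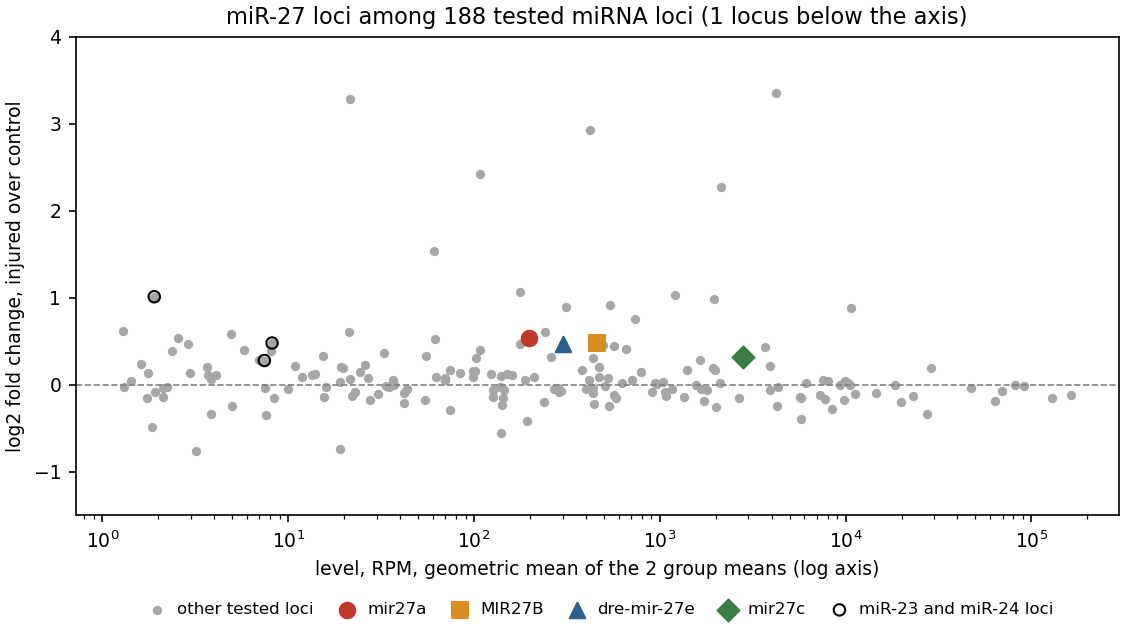
Log2 fold change, injured over control with TMM scaling, against level in RPM (log axis, geometric mean of both group means) for the 188 tested loci, of which 1 lies below the axis. mir27a (0.54), MIR27B (0.48) and dre-mir-27e (0.47) lie close to each other, and mir27c (0.33) is lower and more abundant. The 3 tested miR-23 and miR-24 loci (open circles) have low counts.

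The seed of miR-128 is that of miR-27 moved by 1 base, so both families recognise related target sites, and miR-128 is known as abundant in neurons. mir128-1 (ENSDARG00000081902) had 5091, 5494 and 4633 RPM in injured and 6553, 6756 and 6184 RPM in control libraries. It fell by 0.40 on the log2 scale (SE 0.07, edgeR adjusted p = 0.0157), opposite in direction to dre-mir-27e. The call was lost without injured 3, control 1, control 2 or control 3 (edgeR adjusted p of 0.0535 to 0.0688). MIR128-2 (ENSDARG00000083495) had 18.3 to 23.8 RPM in injured and 19.4 to 26.3 RPM in control libraries and was not called (log2 fold change −0.13, SE 0.15, edgeR adjusted p = 0.746).

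miRNAs of other cell types were set beside the miR-27 loci. The leucocyte miRNAs miR-142, miR-150 and miR-223 summed to 2606, 4222 and 3804 RPM in injured 1, 2 and 3, against 1306, 2156 and 1844 RPM in control 1, 2 and 3. MIR223 and mir150 had 0 reads, so this sum is that of miR-142 alone. Both tested MIR142 loci were called higher, set against 9.68% called higher among the 186 loci other than the pair. The sum of miR-126, a miRNA of endothelium, was 7736 to 7819 RPM in injured and 7791 to 8098 RPM in control libraries. Its locus mir126a averaged 7097 RPM in injured and 7479 RPM in control libraries. Its locus MIR126 averaged 668 RPM in injured and 477 RPM in control libraries, with 154 RPM in control 1. Neither locus was called. The erythrocyte miRNAs miR-144 and miR-451 summed to 2326 to 2754 RPM in injured and 2006 to 2506 RPM in control libraries. Muscle miRNAs (miR-1, miR-133, miR-206) reached at most 6.19 RPM in injured and 5.25 RPM in control libraries. Reads of miR-142 were thus higher in all injured libraries, as those of mir27a and MIR27B were. Injured 1 had the lowest miR-142 sum, mir27a level and mir27c level of the injured libraries but the highest MIR27B level. The part of leucocytes in the change of the miR-27 loci was not tested.

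The loci most like the pair were ranked by the root mean square difference of their log2 CPM over the 6 libraries, with each profile centred on its own mean and set against the mean of the pair. The nearest of 186 other tested loci was mir7146 (0.0738), a rare locus with 2.00 to 3.49 RPM. It had 41, 35 and 40 reads in injured and 6, 8 and 5 reads in control libraries. With so few reads, counting error leaves its place in this ranking uncertain. mir460 (0.123), dre-mir-27e (0.127), MIR140 (0.129) and mir125a-1 (0.138) followed, against a median of 0.306 over the 186 loci. mir27c was 20th by this measure (0.210). mir27a and MIR27B differed from each other by 0.195. That value was taken between the 2 loci and not against their mean. It is therefore not comparable with the distances of the other loci. All these profiles share the same 6 libraries and the same split in depth.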

How the data were processed

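The authors sequenced small RNA of injured and control telencephalic hemispheres of adult zebrafish. Per the study's methods, inserts trimmed with Cutadapt to 21, 22 or 23 nucleotides were mapped to GRCz11 with STAR, with 1 mismatch and a mapping quality of 30, and counted with HTSeq in union mode at annotated miRNA loci. The submitters' processing notes list BWA instead of STAR, with versions not given in the sources used here. The labels also list a total RNA kit, while the study's methods name a small RNA kit. The deposited values are raw counts per locus. The 5 HTSeq summary lines were left out, of which reads outside any miRNA locus made up 11.4% to 12.3% of all counted reads. The symbol table named 331 of the 434 loci.

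RPM was computed from totals at miRNA loci, with 95% exact (Clopper-Pearson) intervals. Fold changes came from edgeR 4.0.16 in R 4.3.3 (quasi-likelihood test, two-sided, TMM, Benjamini-Hochberg adjustment over 188 loci with a mean normalised count above 10, threshold 0.05); CPM stands for TMM-scaled counts per 1000000 reads, with a prior count of 2 on the log2 scale. DESeq2 1.42.0, limma-voom 3.58.1, other scalings and filters, Bonferroni adjustment, a replicate block and omission of each library were alternatives. The code was tested on simulated data. The pair, lists and tests were chosen with earlier results of these data known. Named loci were the miR-27, miR-23, miR-24 and miR-128 loci with reads, the 5 loci nearest in abundance to each of the pair and the 5 most similar profiles; loci at 0 reads were named in addition. Chi-square per degree of freedom between replicates of the same group, over loci with at least 20 reads, was at least 42.8. No library was therefore taken as a repeat of another in its group. Injured and control libraries were not compared in this way, so it does not show whether they share fish. The main test treated all 6 libraries as separate. Mature sequences were not used here.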

Additional observations from a re-analysis of the deposited data

How the results depend on the processing

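The log2 fold changes of mir27a and MIR27B kept their direction under all 16 alternatives, with ranges of 0.42 to 0.64 and 0.37 to 0.59. They moved by less than 1 SD of the replicates. Leaving out 1 of 3 libraries shifts a group mean by only part of its SD, and the filters hardly changed the values. The pair also came from loci whose small change had already been seen, so neither point is a sign of stability. The difference in the log2 ratio of mir27a to MIR27B ranged from −0.051 (without injured 2) to 0.24 (without injured 1), with −0.019 without injured 3. The cause was not tested. Bonferroni adjustment left 6 called loci in all, 0 miR-128 calls and 0 calls among the miR-23, miR-24 and other miR-27 loci, since the limit is stricter by construction; upper-quartile scaling also left 0 calls in that list, and the cause was not tested. It gave 11 calls higher and 5 lower in all, against 20 and 4 with TMM, and moved the median of all loci from 0.03 to −0.08. DESeq2 gave 22 higher and 9 lower. Without 1 library there were 10 to 24 calls, 0 to 2 of them in that list and 0 or 1 at miR-128 loci. The lowest count in all, 10, came without injured 3, control 1 or control 3, and 14 came without control 2. For the 21 single loci other than the pair that were named and tested, 320 of 353 values stayed on the same side of the threshold, 22 lost their call and 3 gained one; the alternatives for loci near in abundance or profile were added after seeing the data. The other 8 changed sign at uncalled loci, the cause not tested: with upper-quartile scaling mir141 (−0.060), mir301c (−0.021) and mir10d (−0.024), with totals of all counted reads MIR26A1 (4.2e-05), and without 1 library mir141 (−0.0017 without injured 2 and −0.031 without control 2, range −0.031 to 0.14), mir199-2a (0.035 without control 1, range −0.17 to 0.035) and mir203b (−0.14 without injured 3, range −0.14 to 0.42). All 22 lost calls were at loci called with TMM. These were MIR125B1 (10 of 17 alternatives), dre-mir-27e (6 of 17), mir128-1 (5 of 17) and MIR21 (1 of 17). The uncalled loci had no call to lose, so the count of 320 says little about how stable the calls were. The 3 gained calls were at MIR15A, MIR140 and mir27c. The replicate numbers are shared between groups in the labels, and injured and control hemispheres may come from the same fish, but no source says that a shared number marks it. Deviations from the group means correlated at 0.32, 0.12 and 0.08 for same-numbered libraries, and each library correlated best with its own number, a hint from the data only. With the replicate number as a block, 22 loci were called, 20 of them among the 24, and the log2 fold changes were 0.53 for mir27a, 0.47 for MIR27B and 0.47 for dre-mir-27e (edgeR adjusted p = 0.0460). The control libraries were the shallowest, and the miR-23 and miR-24 loci had 31 reads or fewer there. In the deeper injured libraries these loci still had at most 143 reads, and the cause of their low counts was not tested.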

Other observations

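The tested loci nearest to mir27a in abundance differed in what they did after injury. MIR21 (ENSDARG00000080484), a miRNA known to rise in many injured tissues, averaged 260 ± 47.3 RPM in injured and 121 ± 22.1 RPM in control libraries (SD, n = 3 each), and it rose by 1.06 on the log2 scale (edgeR adjusted p = 0.00881). MIR125B1 (ENSDARG00000080032), of a family abundant in brain, averaged 210 ± 13.9 RPM in injured and 148 ± 19.1 RPM in control libraries with a log2 fold change of 0.47 (edgeR adjusted p = 0.0466). That call was lost under 10 of 17 alternatives, among them upper-quartile scaling (edgeR adjusted p = 0.135) and the omission of any library but control 3 (0.105 to 0.177). mir141, mir10d and dre-mir-429 were not called, with log2 fold changes of 0.06, 0.09 and −0.42. Of the 5 loci nearest to MIR27B (mir203b, MIR15A, mir301c, mir199-2a and MIR26A1), edgeR called 0 with TMM scaling, with log2 fold changes between −0.22 and 0.20, set against 11.8% called among the 186 tested loci other than the pair. The groups did not overlap at MIR15A, and DESeq2 called it lower (log2 fold change −0.26, DESeq2 adjusted p = 0.00446). The others of these loci gained no call under the alternatives.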
